A study of Mus musculus with 2 samples.

Results

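The myogenic regulatory factors (MRFs) Myod1, Myf5, Myf6 and Myog, the Mef2 genes Mef2a, Mef2c and Mef2d, and the paired-box genes Pax3 and Pax7 were examined in C2C12 myoblasts. They were chosen by gene symbol from a table of gene activity that lists 24165 RefSeq entries of 20128 symbols. Of the 9 genes named, 8 are listed, each with a single entry, and Myf6 is not listed. The C2C12 line consists of immortal mouse muscle precursors, or myoblasts, which fuse into multinucleated fibres when serum is withdrawn. There is 1 group, untreated C2C12 cells at 80% confluency in medium with fetal bovine serum, with 2 replicate libraries. In global run-on sequencing (GRO-seq), engaged RNA polymerases in isolated nuclei extend their transcripts with bromouridine, and the labelled RNA is captured and sequenced. The authors pooled both libraries before computing activity, so each gene has 1 value, and neither a standard deviation nor a test across replicates is given. The reads per library are not in the table.

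Gene activity is the density of reads on the sense strand of the gene body, from 1 kb downstream of the transcription start site (TSS) to the transcript end, given as reads per kilobase of mappable bases per 1000000 reads (RPKmM). An entry is marked Inactive where its density did not pass the authors' comparison with gene deserts. That comparison used Poisson statistics, so a long gene body can pass at a lower density than a short one. The part of gene length in the calls of the members was not tested. The activity is a density per length, while the length and the exon share of the counted body differ between genes. How far this bears on ratios between genes was not tested. The values have 2 decimals, so each stands for a range of 0.005 RPKmM to either side. This rounding is the only error given here, and it includes neither the counting error nor the variation between libraries.

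The MRFs are basic helix-loop-helix (bHLH) factors that pair with E proteins and bind the E-box, CANNTG, in muscle promoters and enhancers. Myf5 and Myod1 commit cells to the muscle lineage, and Myog drives their terminal differentiation. Mef2 proteins bind an A/T-rich motif and act together with MRFs, while Pax3 and Pax7 lie upstream of the MRFs in the embryo and in satellite cells, the stem cells of adult muscle.

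Promoters of members are shown because the MRFs and Mef2 proteins are known to act through short motifs in promoters and enhancers. The promoters of 4 genes follow, and the sequences are those of RefSeq on GRCm38.p6, a later build than that of the activity table, and were matched by symbol. They cover the 250 bases before each annotated start and are written 5′ to 3′ in the direction of transcription. The table of promoters used here holds 6 of the 9 genes, Myog, Myf5, Mef2a, Mef2c, Mef2d and Pax7. Capitals mark matches to CANNTG, to TATAAA on either strand, or to the core of the MEF2 motif, which is TA, then 4 bases of A or T, then TA. The MRF promoters are those of Myog, on the plus strand at chr1:134289754-134290003, and of Myf5, on the minus strand at chr10:107486135-107486384. The Mef2 promoters shown are those of Mef2a, on the minus strand at chr7:67372859-67373108, and of the most 5′ of 3 Mef2c starts, on the plus strand at chr13:83503784-83504033.
Myog: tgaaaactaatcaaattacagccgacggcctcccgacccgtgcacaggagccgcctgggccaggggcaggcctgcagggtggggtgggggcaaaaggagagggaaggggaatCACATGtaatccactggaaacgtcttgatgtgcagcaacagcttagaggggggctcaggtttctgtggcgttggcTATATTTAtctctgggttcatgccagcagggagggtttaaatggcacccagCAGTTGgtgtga
Myf5: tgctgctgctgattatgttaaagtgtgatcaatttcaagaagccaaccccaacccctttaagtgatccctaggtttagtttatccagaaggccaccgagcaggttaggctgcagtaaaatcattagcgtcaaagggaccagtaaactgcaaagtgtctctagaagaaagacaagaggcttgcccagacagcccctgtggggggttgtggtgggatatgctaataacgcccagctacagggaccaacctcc
Mef2a: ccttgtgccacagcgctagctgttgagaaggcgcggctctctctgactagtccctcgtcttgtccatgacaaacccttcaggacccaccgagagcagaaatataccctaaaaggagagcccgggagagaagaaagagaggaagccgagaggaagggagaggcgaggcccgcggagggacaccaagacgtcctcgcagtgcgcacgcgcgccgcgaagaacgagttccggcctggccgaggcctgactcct
Mef2c: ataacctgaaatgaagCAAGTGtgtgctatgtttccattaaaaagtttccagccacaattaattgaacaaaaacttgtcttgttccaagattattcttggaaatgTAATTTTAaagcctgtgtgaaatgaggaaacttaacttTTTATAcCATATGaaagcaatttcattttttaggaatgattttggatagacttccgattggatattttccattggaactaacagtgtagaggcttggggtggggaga

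The Myog window holds 2 E-boxes, CACATG and CAGTTG, whose first bases lie 138 and 12 bases before the start. It also holds 1 match to the MEF2 core, TATATTTA, starting 63 bases before the start. An E-box is found in 66.2% of the 32851 promoter windows of the same length, and the MEF2 core in 8.56%. The window of the most 5′ Mef2c start holds 2 E-boxes, 1 MEF2 core and 1 TATAAA match, and TATAAA is found in 12.4% of windows. Neither of the other Mef2c windows holds a MEF2 core, as 1 holds only a TATAAA match and 1 only an E-box. No motif overlaps another in these windows. None of the 3 motifs was found in the windows of Myf5, Mef2a, Mef2d or Pax7, which says only that these letters are not there. A match is a description of the sequence and not a measured binding site.

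All 8 listed members were marked active, against 70.2% of all entries and 68.7% of all gene symbols. Their activities ran from 5.03 RPKmM for Myf5 down to Pax3, which is listed at 0. Most active were Myf5, Mef2d at 4.57 and Mef2a at 3.71, followed by Myod1 and Myog, which were both listed at 2.39. Pax7 at 0.55 and Mef2c at 0.2 were lower, and lay below the median of 0.87 over the 16957 active entries. Thus 5 of the 8 members lay above that median, and the same 5 lay above the upper quartile of 1.99. An activity of at least 1 RPKmM was listed for these 5 members, while 32.3% of all entries reached it. At least 0.1 was listed for 7 members and for 57.2% of all entries. With 8 genes chosen by name, these counts are a description and not a test.

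**Figure D1:**
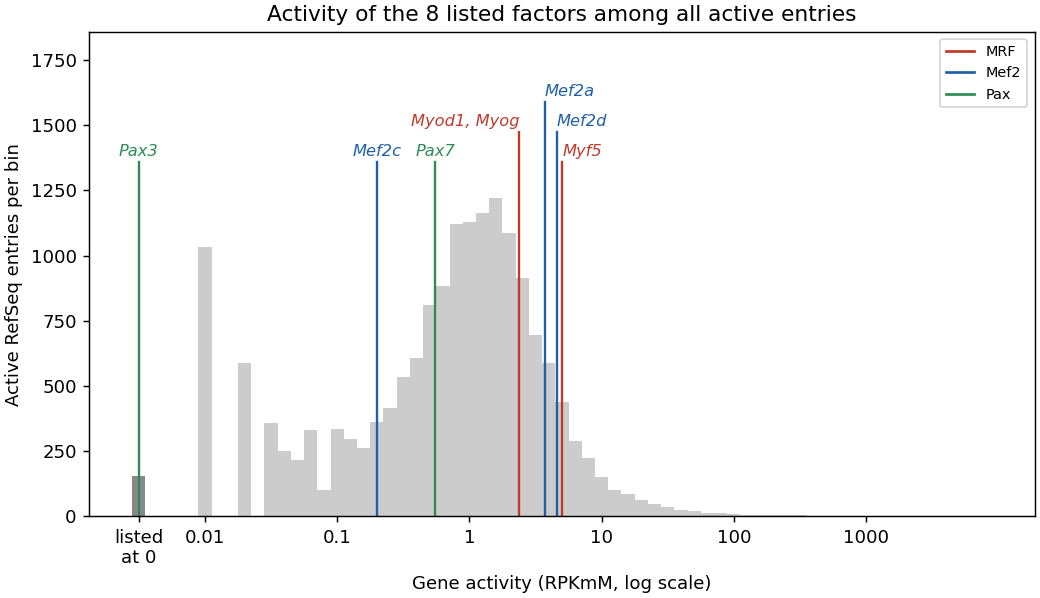
Number of active RefSeq entries (vertical axis) by gene activity in RPKmM (horizontal axis, log scale, with the 154 active entries listed at 0 in a separate bar). Coloured lines mark the pooled value of each member, by family. Myf5, Mef2d, Mef2a, Myod1 and Myog stand on the right of the distribution, Pax7 and Mef2c on its left shoulder, and Pax3 in the bar at 0. Gaps on the left come from rounding to 2 decimals.

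Among the MRFs, Myf5 (NM_008656) was the most active, at 5.03 RPKmM. It held rank 1291 of 16957 active entries, counted from the highest, and 92.4% of active entries lay below it. The rounding of its value is 0.0994% of it, so its place is fixed to ranks 1289 to 1293. Myod1 (NM_010866) had 2.39, at rank 3427.5, and 79.8% of active entries lay below it. Myog (NM_031189) had the same printed value and therefore the same rank. These ranks are the middle of a tie, as 18 entries share this value at ranks 3419 to 3436. Myod1 and Myog cannot be ordered, since the values before rounding lie within 2.385 to 2.395 for both. Myf5 was 2.1 times as active as either, and the rounding allows only 2.1 to 2.11. Whether this ratio exceeds the spread between libraries was not tested, as no library has a value of its own. Relative to the median active entry, Myf5 was 5.78-fold as active and Myod1 and Myog were 2.75-fold.

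All 3 listed MRF genes are short, and the rule that skips the first 1 kb leaves a small window. Positions are those of the GENCODE vM1 annotation of NCBIM37, the assembly also called mm9, and may differ slightly from those of the RefSeq entries. Myod1 lies on the plus strand at chr7:53631844-53634462, Myog on the plus strand at chr1:136186581-136189124 and Myf5 on the minus strand at chr10:106919964-106923190. The gene lengths are 2619, 2544 and 3227 bases. The counted gene body is therefore 1619 bases for Myod1, 1544 for Myog and 2227 for Myf5, or 61.8%, 60.7% and 69.0% of the gene. Exons make up 63.5%, 61.9% and 61.9% of these windows, and introns the rest.

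Myf6, also called MRF4, acts in both determination and differentiation. It is 1870 bases long in the annotation, on the minus strand at chr10:106929916-106931785. The authors analysed genes of 2 kb or longer, and no activity is given for Myf6. It lies 6.72 kb upstream of Myf5 on the same strand. Transcription that runs on from Myf6 toward Myf5 would be counted on the sense strand of Myf5, and its part in the value of Myf5 was not tested.

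The Mef2 genes spanned a wider range of activity than the MRFs. Mef2d (NM_001310587) had 4.57 RPKmM at rank 1466, with 91.4% of active entries below it. Mef2a (NM_001033713) had 3.71 at rank 1969, with 88.4% below it. Mef2c (NM_001170537) had 0.2 at rank 12858.5, with 24.2% below it. Mef2d was thus 1.23 times as active as Mef2a and 22.9 times as active as Mef2c, where rounding allows 22.3 to 23.5. Mef2a was 18.5 times as active as Mef2c, with a range from rounding of 18.1 to 19.1. The low member, Mef2c, is an early Mef2 gene of heart and skeletal muscle, while Mef2a and Mef2d are expressed in many tissues.

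Neighbours in the order of levels often came from different families. Myf5 was 1.1 times as active as Mef2d, and Mef2a was 1.55 times as active as Myod1. Myod1 was 4.35 times as active as Pax7, with 4.3 to 4.39 allowed by rounding, and Pax7 was 2.75 times as active as Mef2c, with 2.66 to 2.85. Each of these ratios lies apart from 1 beyond rounding, and none was set against replicate spread.

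The Pax genes were the least active of the families. Pax7 (NM_011039), which maintains satellite cells, had 0.55 RPKmM at rank 10406.5, with 38.6% of active entries below it. Pax3 (NM_001159520), which acts in the somite and in migrating muscle precursors, is marked active and listed at 0. It shares this value with 153 other entries, at ranks 16804 to 16957, so it stands at the bottom of the active entries. A density under 0.005 is printed as 0, and no ratio of Pax7 to Pax3 is given. In bulk nuclei, fewer cells transcribing a gene and less transcription per cell cannot be told apart, which holds for every value here.

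The precision behind these densities differs between the long and the short members. Mef2a is 141.7 kb long, Mef2c 163.7 kb, Mef2d 29.71 kb, Pax3 95.87 kb and Pax7 96.47 kb. Activity multiplied by the length of the gene body gives the reads that fell there per 1000000 reads (RPM), if every base is mappable. A lower estimate counts only those positions whose sequence of 31 bases occurs once in the genome. At the printed activities Mef2a held 435 to 522 RPM, Mef2d 127 to 131, Pax7 50.7 to 52.5 and Mef2c 31.7 to 32.5. These ranges cover mappability only and leave out the rounding of the activity. The length of Mef2c depends on which of its starts the entry uses. Both estimates coincide for the short genes, at 11.2 for Myf5, 3.87 for Myod1 and 3.69 for Myog. On the same basis Pax7, although less dense, held 4.53 to 4.69 times as many reads as Myf5, and Mef2a held 118 to 141 times as many as Myog. Pax3 held the fewest reads, at most 0.474 RPM for a density that rounds to 0, and Myog and Myod1 the next fewest, so the relative counting error is largest for these 3 genes. The total of reads is not in the table, and no counting interval was computed here.

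**Figure D2:**
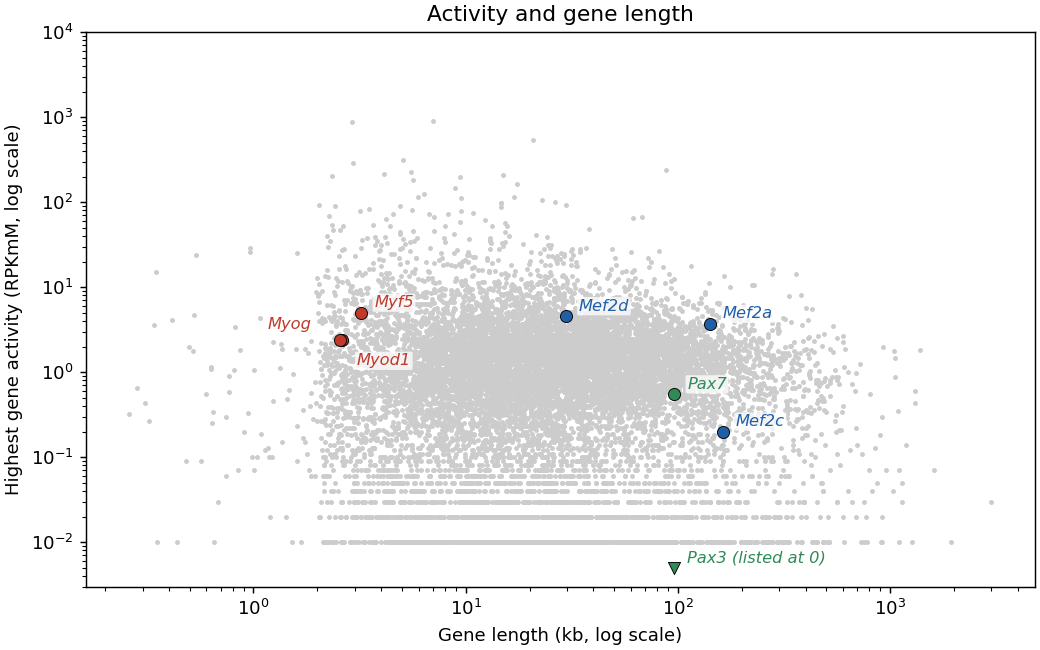
Highest gene activity in RPKmM (vertical axis, log scale) against gene length in kb in GENCODE vM1 (horizontal axis, log scale) for active symbols matched to the annotation (grey) and the members (coloured by family as MRF red, Mef2 blue, Pax green). The 3 MRF genes lie at the short end, near the length limit of 2 kb, while Mef2a and Mef2c have similar lengths and activities of 3.71 and 0.2. The triangle stands for Pax3, listed at 0 and drawn below the axis value of 0.01.

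Reads were mapped uniquely, after trimming to as few as 21 bases where needed, so copies elsewhere in the genome could lower a count. In the gene bodies of Myod1, Myf5 and Myog every sequence of 31 bases occurs once in the genome, and 97.9%, 96.6% and 98.9% of those of 21 bases do. No sequence of 21 bases is shared between the gene bodies of the 4 MRF genes, although their proteins are homologous. In Mef2d, Mef2c, Pax3 and Pax7, the unique share at 31 bases is 96.4% to 97.6%. It is 83.3% in Mef2a, the lowest of the 9 genes, and 76.7% at 21 bases. Its density is scaled to mappable bases, and how far it depends on the map used was not tested. In the annotation only 1 gene overlaps a counted body, the lincRNA 1700113A16Rik, which runs against Mef2d over 527 bases. It is listed at 0.02, and activity is counted on the sense strand.

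Each side of a member was examined for the nearest gene of the table with a position in the annotation. Myod1, at 2.39 RPKmM, lies between Otog at 0.03, located 65.0 kb upstream, and the potassium channel gene Kcnc1 at 0.01, located 17.4 kb downstream. Myf5, at 5.03, lies between Ptprq at 0.09 and Lin7a at 0.02, located 31.2 kb upstream and 57.8 kb downstream. Myog, at 2.39, has the adenosine receptor gene Adora1 at 0.01 on the upstream side and Ppfia4 at 0.4 only 4.24 kb downstream, both on the opposite strand. Both neighbours were below 0.1 for Myod1 and Myf5, that is for 2 of the 5 members at 1 or above, and for 11.9% of all 5839 symbols of at least 1 examined in the same way. This comparison was chosen after the values were seen.

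The other members had more active neighbours or were themselves low. Mef2d stands beside Iqgap3 at 1.57 and the inactive Rhbg, and Mef2a between Lrrc28 at 0.31 and Lysmd4 at 0.24. Mef2c was lower than the genes on either side, Cetn3 at 1.22 and C130071C03Rik at 0.29, although Cetn3 lies 1710 kb away. Pax7 stands between the inactive 4933427I22Rik and Tas1r2 at 0.06, and Pax3 between the inactive Sgpp2 and Epha4 at 0.39.

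**Figure D3:**
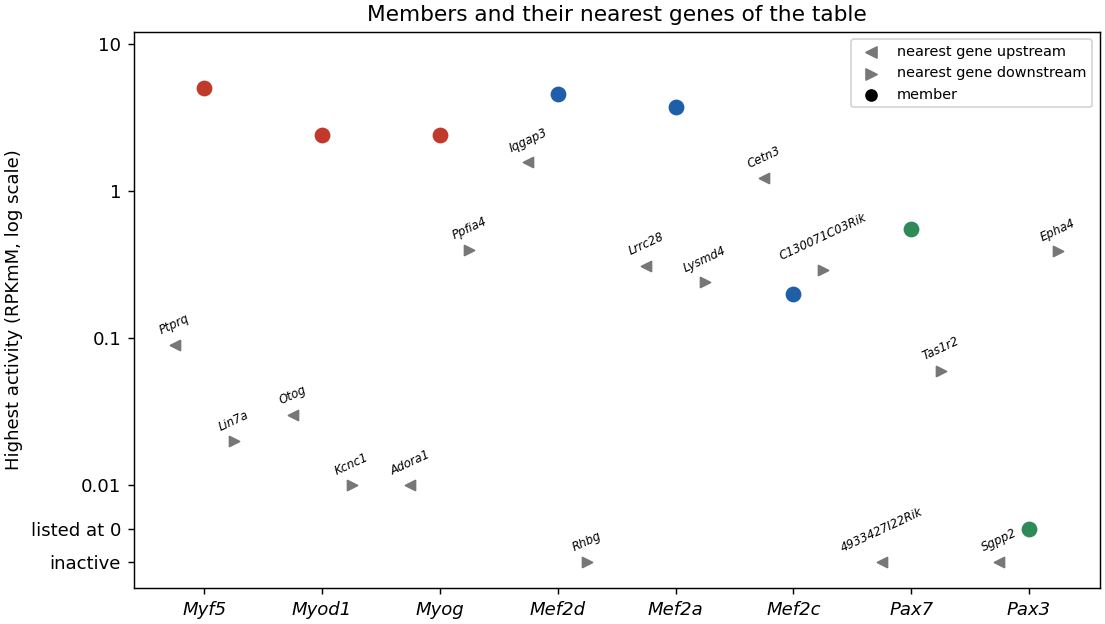
Highest activity in RPKmM (vertical axis, log scale) of each member (coloured circles) and of the nearest gene of the table upstream and downstream of it (grey triangles). Both neighbours of Myod1 and Myf5 lie below 0.1, while Mef2c and Pax3 lie below at least 1 neighbour. Genes listed at 0 or marked inactive are drawn at fixed heights at the bottom.

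Promoter CpG content also differed among the members. CpG was counted in the same 250 bases, where the median over all promoters is 6. The window of Mef2a holds 21 CpG, that of Mef2d 19 and that of Pax7 13, more than 83.7%, 80.3% and 68.5% of promoters respectively. The Myog window holds 7, close to the median, and the Myf5 window 3, with fewer in only 29.0% of promoters. The 3 Mef2c windows hold 1, 6 and 4. Among all symbols with at most 2 CpG in every window, 25% were active, with a median of 0.06 among the active ones, against 89.9% and 1.23 for those with 16 or more. Myf5, the most active member, had fewer CpG than every other member window except that of the most 5′ Mef2c start. No member with a window lies in the group with at most 2, as Myf5 holds 3 and Mef2c up to 6. Myod1, Pax3 and Myf6 have no window here. The start used by the authors for each entry is not in the table, so a window may not be the promoter of the entry measured, which bears most on Mef2c.

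Other members of both families were examined next. Mef2b was inactive, and so were Pax1, Pax2, Pax4 and Pax9. Pax5 had 0.05 RPKmM and Pax8 0.02, and 3 of the 4 entries of Pax6 were active, each at 0.01. Thus 3 of 8 paralogues were active, or 37.5%, with a median of 0.02, where 68.7% of all symbols were active and their median was 0.87. This share and this median are the background for each list that follows. Pax7 at 0.55 was the highest Pax gene, and the only one at 0.1 or above.

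Partners and opponents of the MRFs, most of them bHLH factors, were active for 15 of 16 listed symbols, or 93.8%, with a median of 1.29 over the active ones, and Id4 was inactive. Most active were Hes1 at 5.34, a repressor downstream of Notch, Bhlhe41 at 4.45, and the repressor Zeb1 at 3.19, which competes for E-boxes. The least active was Twist1, at 0.01. The E protein genes Tcf12, Tcf3 and Tcf4 were listed at 2.63, 2.5 and 1.29. Myod1 and Myog, at 2.39, stand between the last 2 of these. Other entries of Tcf12 went down to 1.21.

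All 18 listed regulators and cofactors of Mef2 were active, with a median of 1.25. The acetyltransferase Ep300 led with 2.78, followed by the kinases Mapk14 at 2.47 and Camk2d at 2.37, and Prkd1 was lowest at 0.01. The class IIa deacetylases that bind and repress Mef2 were all active, with Hdac7 at 1.6, Hdac4 at 1.09, Hdac5 at 1.04 and Hdac9 at 0.5.

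Factors upstream of the MRFs were active for 12 of 16 listed symbols, a share close to the 68.7% of all symbols, with a median of 0.645, below that of all active symbols. The homeobox gene Six4 had 3.72, while Eya2, Meox1 and Gli2 were lowest at 0.01. Dach1, Dach2, Meox2 and Tcf21 were inactive.

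Targets of Pax3 and Pax7 and genes of satellite cells were active for 14 of 15 symbols, or 93.3%, with a median of 1.53. Itga7, the laminin-binding integrin subunit of muscle, had 13.29, Cdh15, or M-cadherin, 8.08 and Fgfr1 4.72. Fgfr4, a direct target of Pax3, was lowest at 0.25, and Calcr, a receptor of quiescent satellite cells, was inactive. Met, which is switched on by Pax3 in migrating precursors, had 1.86. Pax3 is listed at 0 and Pax7 at 0.55, and a link of Met to either was not tested.

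Known targets of MRFs and Mef2 in differentiation were active for all 29 listed symbols, with a median of 1.32. Of these, 16 reached 1 RPKmM, and over all symbols 6367 of the 13822 active ones did. Des, the muscle intermediate filament, had 72.45, Tnnc1, slow and cardiac troponin C, 54.86 and Chrna1, the acetylcholine receptor alpha subunit, 15.62. Cdkn1c was lowest, active and listed at 0. Within this list the levels ran from 0 to 72.45, and Ckm, muscle creatine kinase, had 0.2, the same printed value as Mef2c. The median of this list was 1.26 with the median entry of each symbol and 1.4 without the symbol listed at 0, and the medians of the other lists were the same under both settings.

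**Figure D4:**
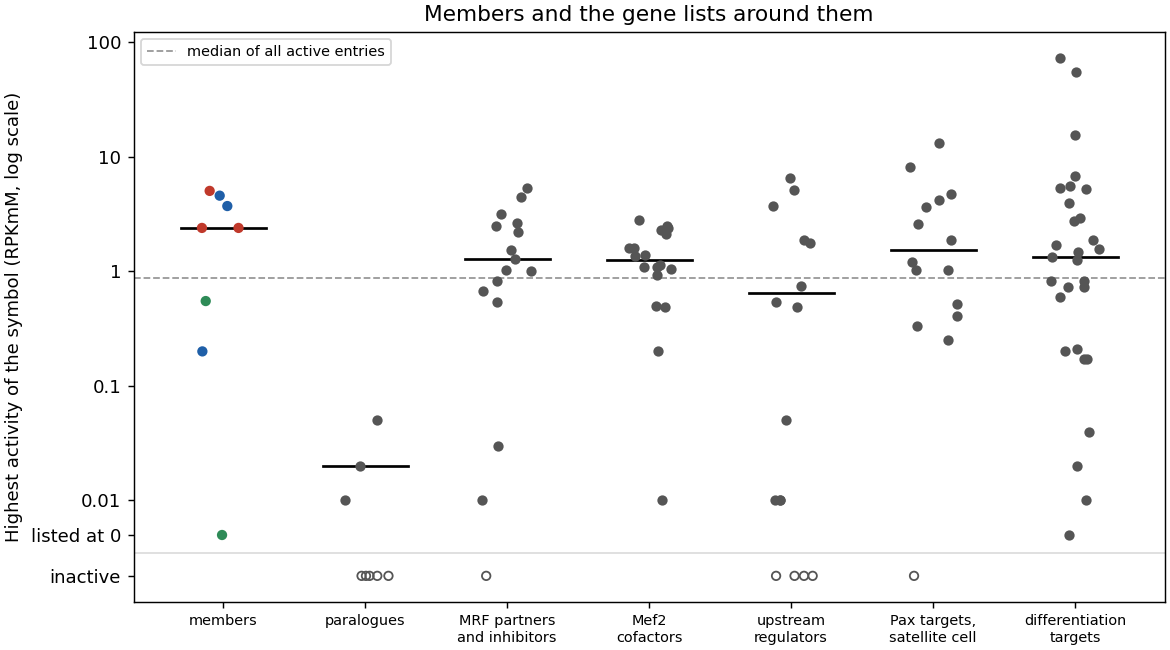
Highest activity in RPKmM (vertical axis, log scale) of each symbol in the members and in 6 lists around them. Black bars are medians over active symbols, the dashed line is the median of 0.87 over all active entries, and open circles are inactive symbols. The 3 active paralogues lie at 0.05 or below, while symbols of the other lists lie on both sides of the dashed line.

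Among the listed genes, those near in level to each member were named, and with 1 pooled value this is a likeness of level only. Camk2d at 2.37 and Mapk14 at 2.47 were near to Myod1 and Myog, Mylpf at 5.18 to Myf5, and Bhlhe41 and Fgfr1 to Mef2d. Six4 at 3.72 and Vcam1 at 3.63 were near to Mef2a, Dmrt2 and Id2, both at 0.54, to Pax7, and Ckm and Smyd1, both at 0.2, to Mef2c.

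The label of the cells was compared with markers of several cell types. All 8 myoblast markers were active, from 0.82 for Msc to 72.45 for Des, with the members Myod1 and Myf5 among them. All 9 markers of differentiated muscle were active as well, from 0.01 for Myh2 to 6.85 for Acta1, with Myh3 at 5.28, Mylpf at 5.18 and Myog itself among them, and Myh8 at 0.02. Their part in the activity of Myog was not tested. Apart from Myog, these markers of differentiated muscle also belong to the differentiation targets above. The myoblast markers Des, Cdh15, Itga7, Vcam1 and Msc likewise belong to lists above, so their values are not separate observations. Of 6 fibroblast markers 4 were active, with Col1a2 at 28.94 and Col1a1 at 9.29, while Thy1 and Lum were inactive. Adipocyte markers were active for 2 of 6 at up to 0.33, endothelial markers for 2 of 6 and blood markers for 1 of 4, all at 0.01. Of 5 neural markers 4 were active, at 0.01 to 0.23 apart from Tubb3 at 6.01.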

How the data were processed

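The data are GRO-seq of C2C12 myoblasts, from 2 replicate libraries. Per the methods and the submitters' processing notes, bases were called with CASAVA 1.8, reads of 76 bp were mapped to mm9 with Bowtie2, failing reads were trimmed by 5 bp and realigned down to 21 bp, unique reads of mapping quality 40 or more were kept, reads at rRNA and tRNA repeats were discarded, and the libraries were pooled. The authors deposited 1 table of gene activity in RPKmM, an RPKM over mappable bases, with the word Inactive where the false discovery rate against gene deserts was not below 0.01. Pooling hides the spread between libraries, and the rule that starts 1 kb after the TSS removes a large share of short genes.

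Ranks were counted from the highest active entry, with ties at their middle rank. Where a symbol has several entries, its highest active entry was used. Ratios carry the range that rounding allows. Positions came from GENCODE vM1 on NCBIM37, where 86.6% of the symbols matched 1 gene. Unique sequences of 21 and 31 bases were counted on both strands of 2716965481 bases. Promoters were those of RefSeq on GRCm38.p6. The rank and uniqueness functions were tested on simulated data. All members are named, and from each list the 3 most active, the least active and the inactive symbols. Some genes that this rule names are not reported here. Further genes, such as the E proteins, the Hdac genes, Met and Ckm, were added once their values had been seen. The members and lists were chosen with earlier results of these data known. Python 3.11.15, numpy 2.4.6, pandas 2.3.3, scipy 1.17.1, numba 0.67.0 and matplotlib 3.10.9 were used.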

Additional observations from a re-analysis of the deposited data

How the results depend on the processing

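With a threshold of 1 RPKmM in place of the authors' call, 5 members were counted as active, and with 0.1 there were 7 in place of 8. The number of members above the median was 5 in each of the 4 sets of active entries for which it was counted again. With inactive entries ranked as well, 56.9% of entries lay below Pax7, so it then lay above the median too. Adding 0.01 to both values moved the ratio of Mef2a to Mef2c to 17.7, that of Mef2d to Mef2c to 21.8 and that of Myod1 to Pax7 to 4.29, outside the range from rounding, and the other ratios stayed within it. The share of entries below a member depended on the set ranked. Over the alternatives it ran from 85.5% to 94.7% for Myf5, from 74.7% to 85.8% for Myod1 and Myog, from 91.1% to 93.9% for Mef2d, from 88.1% to 91.9% for Mef2a, from 36.5% to 56.9% for Pax7, from 22.2% to 46.8% for Mef2c and from 0% to 30.1% for Pax3. The highest share came from including inactive entries for all 8, and the lowest for the MRFs came from the 1391 active entries of genes under 5 kb. No paired analysis was possible because there is 1 group and its libraries are pooled in a single column. Values per library were not analysed here, so no replicate was left out. Depth limits Pax3 most, followed by Myog and Myod1.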
